A study of Mus musculus with 8 samples.

Results

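AP-1 is a family of basic leucine zipper transcription factors, and the data analysed here give the mRNA level of its members in mouse articular chondrocytes, the cells of joint cartilage, with and without the proinflammatory cytokine IL-1β. Members were matched by gene symbol from a list of names: *Fos*, *Fosb*, *Fosl1* and *Fosl2* of the Fos subfamily, *Jun*, *Junb* and *Jund* of the Jun subfamily, and *Atf3*, *Batf* and *Batf3*. These 10 genes were all found, each as 1 row, among the 54658 gene symbols of the RNA-Seq count table. The primary chondrocytes came from cartilage of the femoral heads of wild-type mice aged 3 weeks and were released by collagenase digestion. One day after plating, cultures received IL-1β at 1 ng/ml (4 samples) or vehicle (4 samples) and were collected after 24 h. The sources used here do not state whether the 4 samples of a group were separate mice, cultures or pools, so p-values measure the spread between these samples, which may be technical.

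AP-1 factors bind DNA as dimers joined through their leucine zippers. Jun proteins pair with themselves or with Fos proteins, whereas Fos proteins need a Jun partner, and the dimers recognise the TPA response element or the related cAMP response element. Many of the genes are immediate-early genes, whose transcripts appear and decay quickly after growth factors, cytokines or stress act through MAP kinases, and AP-1 is known for driving matrix metalloproteinases in cartilage under IL-1β. A sample taken 24 h after the cytokine is therefore a late view of the family.

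Counts per sample summed to between 10992355 and 17104351 in the IL-1β group and between 13970959 and 17456063 in the vehicle group. A floor of 3 counts was worth 0.172 to 0.273 CPM (counts scaled to 1000000 per sample, with TMM normalization where levels are given). Floors, and intervals called counting intervals, cover counting error only. Intervals of a fold change rest instead on its SE, which also takes in the spread between samples. This SE is not printed by edgeR. It was derived as the absolute Log2FC divided by the square root of the F statistic of edgeR's test. Vehicle replicate 4 lay apart from vehicle replicates 1 and 2 but not from vehicle replicate 3. The chi-square distance over genes was 5.87 and 5.82 per degree of freedom to the former and 2.65 to the latter, against 1.93 to 3.14 for the other pairs within a group and 52.5 or more between groups. Chondrocyte markers, led by *Col2a1*, were all detected. Their summed level ranged from 6183 to 6712 CPM with IL-1β and from 17110 to 17710 CPM with vehicle, and 11 of 12 were lower with IL-1β. Among markers of other cells, macrophage markers summed to between 30.2 and 34.2 CPM with IL-1β and between 15.2 and 17.5 CPM with vehicle, led by *Cd68*, with *Adgre1*, *Itgam*, *Tyrobp* and *C1qa* at 3 counts or fewer in every sample. Fibroblast markers summed to between 57.7 and 62.0 CPM against 38.4 to 41.3 CPM, osteoblast markers to between 112.2 and 128.6 CPM against 222.6 to 228.3 CPM, and osteoclast markers, led by *Ctsk*, to between 132.2 and 138.0 CPM against 109.5 to 111.2 CPM. Of the osteoclast markers, *Ocstamp*, *Dcstamp* and *Calcr* were at 3 counts or fewer in every sample, *Dcstamp* at 0. Markers of endothelium, red blood cells and muscle stayed under 3 CPM in sum in every sample. The part of these shifts in the results for AP-1 was not tested, and in bulk samples fewer cells of a type and less RNA per cell cannot be told apart.

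At 24 h the family had moved in both directions. *Fosl1*, *Fosl2* and *Junb* were higher in IL-1β-treated chondrocytes, *Fos*, *Fosb*, *Jund*, *Atf3* and *Batf3* were lower, and *Jun* and *Batf* did not pass the test. Thus 8 of 10 members passed an adjusted p under 0.05 in edgeR's quasi-likelihood test, in a data set where 40.2% of the 14404 genes tested did so. The 3 members that rose stood against 20.4% of all genes that rose, and the 5 that fell against 19.8% of all genes that fell. Members called as differentially expressed genes (DEGs, an adjusted p under 0.05 and a log2 fold change, Log2FC, beyond 1 in either direction) numbered 2, *Fos* and *Batf3*, beside 5.21% of all genes. Both were downregulated, which held for 2.35% of all genes. The 4 IL-1β and 4 vehicle values did not overlap for 6 members, beside 36.8% of all genes. The median Log2FC of the 10 members was -0.06, and that of all genes tested was -0.00121. *Fosb* and *Batf3* entered the test only because their vehicle samples lay over 1 CPM, so they could enter only with a vehicle level above that limit.

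**Figure D1:**
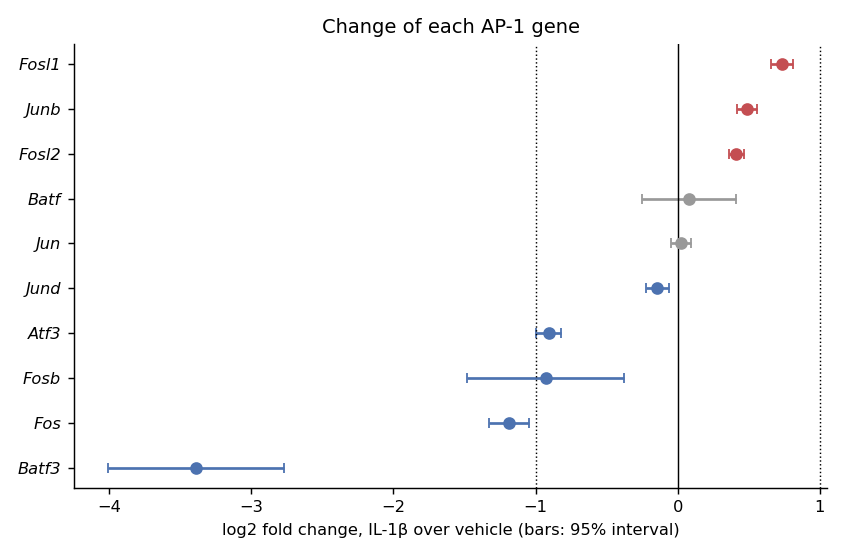
Log2FC of each AP-1 member, IL-1β over vehicle, on the horizontal axis, with bars for the 95% interval and dotted lines at a Log2FC of 1 in each direction (n = 4 per group). *Batf3* lies farthest from 0 at -3.39, *Fosl1* is the highest at 0.74, and the bars of *Jun* and *Batf* cross 0.

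The plot of Log2FC by member shows how unequal the sizes were. Of all genes tested, 0.347% lay at least as far from 0 as *Batf3* and 3.85% at least as far as *Fos*. The corresponding shares were 5.76% for *Fosb*, 5.94% for *Atf3* and 8.04% for *Fosl1*, and they widened to 15.1% for *Junb*, 18.7% for *Fosl2* and 53.8% for *Jund*.

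**Figure D2:**
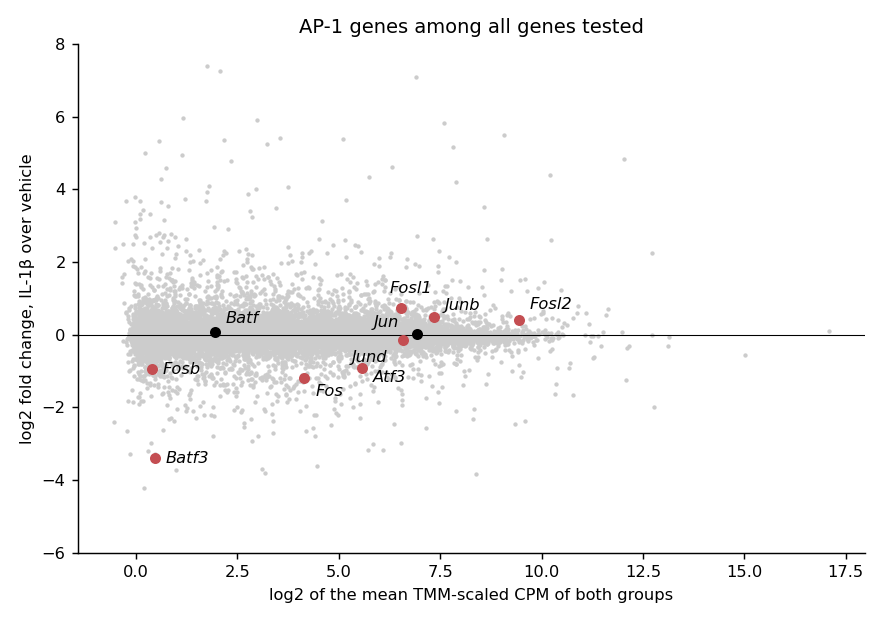
Log2FC, IL-1β over vehicle, against mean level for all 14404 genes tested (grey) and for the 10 AP-1 members (labelled points; red, adjusted p under 0.05, black, not passed; horizontal axis, log2 of mean CPM). The members span the range from the scarcest genes, *Fosb* and *Batf3*, to *Fosl2*, and only *Fos* and *Batf3* lie beyond a Log2FC of 1 in either direction.

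*Fos* encodes c-Fos, the classical immediate-early member of the family (ENSMUSG00000021250.13, chromosome 12, 85473890 to 85477273, plus strand of GRCm38). Its level was 9.85, 11, 11.1 and 11.3 CPM in IL-1β replicates 1 to 4 and 24.1, 25.7, 24.9 and 24.3 CPM in vehicle replicates 1 to 4. The groups were clear of each other, with every IL-1β sample lower and little spread inside either group. The means were 10.8 ± 0.661 CPM in treated and 24.8 ± 0.735 CPM in vehicle cells (SD, n = 4), a Log2FC of -1.19 (SE 0.07, adjusted p = 3.52e-14 in edgeR), and it fell by 56.1%. Tested against a Log2FC of 1 instead of 0 (glmTreat in edgeR), the adjusted p was 0.0577, so its place among the DEGs rested on a value close to the limit.

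*Fosb* encodes FosB, also an immediate-early product (ENSMUSG00000003545.3, chromosome 7, 19302696 to 19310051, minus strand). It was the scarcest member for its length, with 4, 10, 26 and 12 reads in IL-1β replicates 1 to 4 and 36, 31, 21 and 25 reads in vehicle replicates 1 to 4. In CPM these were 0.362, 0.724, 1.55 and 0.854 with IL-1β and 2.08, 1.80, 1.502 and 1.65 with vehicle. The groups overlapped, since IL-1β replicate 3 lay above vehicle replicate 3. The Log2FC was -0.93 (SE 0.28, adjusted p = 0.00886 in edgeR), and without IL-1β replicate 3 it was -1.40 (adjusted p = 0.000485), which would add *Fosb* to the DEGs. Without IL-1β replicate 1 it was -0.72 (adjusted p = 0.0362 in edgeR). With 1 factor of unwanted variation (RUVs) in the edgeR model it was -0.65 (adjusted p = 0.046), near the threshold. The summed reads, 113 with vehicle and 52 with IL-1β, gave a ratio of 1.90 after correction for depth, with a 95% counting interval of 1.36 to 2.69.

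*Fosl1* encodes Fra-1, a Fos protein without the strong activation domain of c-Fos (ENSMUSG00000024912.6, chromosome 19, 5447547 to 5455946, plus strand). It was measured at 110.0, 117.6, 120.9 and 112.7 CPM with IL-1β and at 67.1, 71.9, 71.5 and 66.7 CPM with vehicle. Every IL-1β sample exceeded every vehicle sample. The means were 115.3 ± 4.88 and 69.3 ± 2.80 CPM (SD, n = 4), and the Log2FC of 0.74 (SE 0.04, adjusted p = 2.12e-15 in edgeR) was the largest increase in the family, a rise of 66.7%. In the GENCODE vM21 annotation 57.2% of the exon bases of *Fosl1* overlap *Ccdc85b* on the opposite strand. *Ccdc85b*, whose deposited length was only 609 bases, rose from 16.1 ± 2.30 to 19.5 ± 1.16 CPM (SD, n = 4; Log2FC 0.28, adjusted p = 0.00824 in edgeR). *Ccdc85b*, *Junos* and *Prdx2*, which overlap *Fosl1*, *Jun* and *Junb*, were named after their values were seen. The strand setting of the counting is not given in the sources used here, so reads of overlapping genes cannot be told apart.

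*Fosl2* encodes Fra-2, the relative of Fra-1 (ENSMUSG00000029135.10, chromosome 5, 32135801 to 32157842, plus strand). Its level was 778.0, 785.9, 798.9 and 793.1 CPM with IL-1β against 593.0, 590.7, 585.9 and 599.5 CPM with vehicle. No values overlapped, and the samples of a group stayed within a few percent of each other. The means were 789.0 ± 9.06 and 592.3 ± 5.64 CPM (SD, n = 4), for a Log2FC of 0.41 (SE 0.03, adjusted p = 6.00e-13 in edgeR), or 33.2% more with IL-1β. Reads from *Fosl2* outnumbered those of every other member in all samples.

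**Figure D3:**
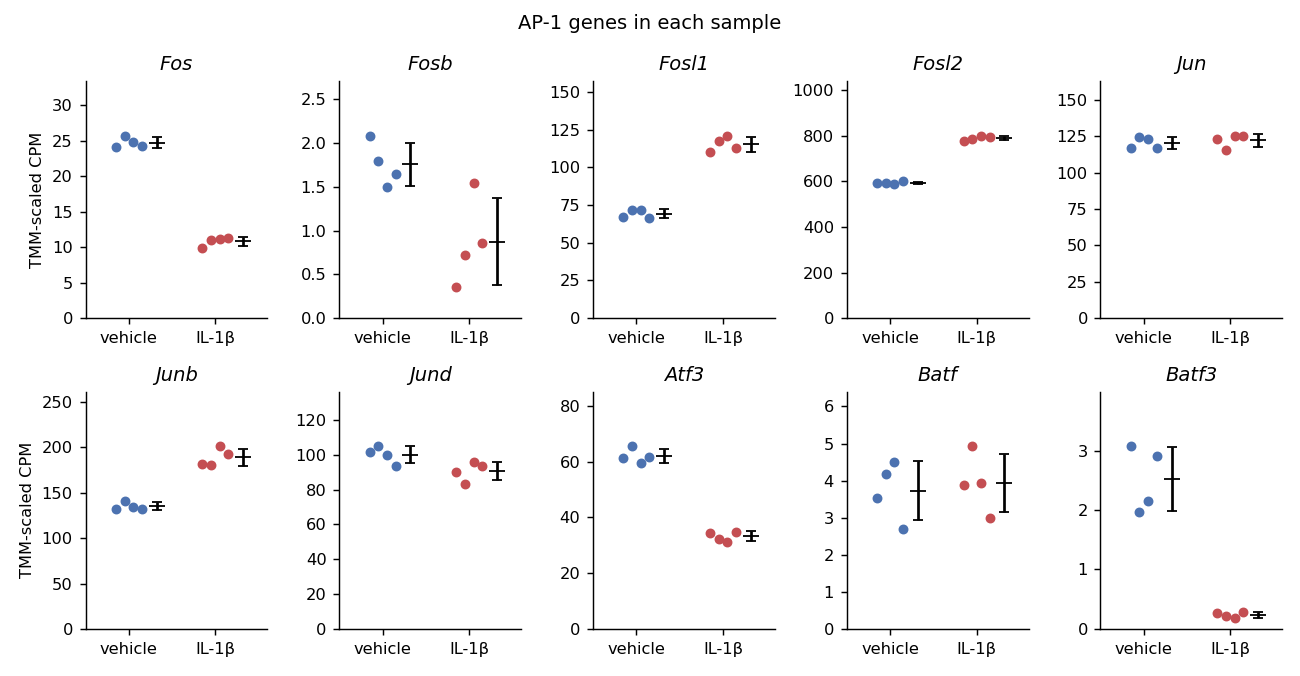
CPM of each AP-1 member in the 4 IL-1β and 4 vehicle samples, 1 panel per gene with its own axis (points, samples; black marks, mean ± SD). The groups do not overlap for *Fos*, *Fosl1*, *Fosl2*, *Junb*, *Atf3* and *Batf3*, and they overlap for *Fosb*, *Jun*, *Jund* and *Batf*.

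*Jun* encodes c-Jun, the founding dimer partner (ENSMUSG00000052684.4, chromosome 4, 95049034 to 95052222, minus strand). It was at 123.3, 115.8, 125.0 and 125.4 CPM with IL-1β and at 117.3, 124.3, 123.1 and 116.9 CPM with vehicle. The 2 groups covered nearly the same range. The means were 122.4 ± 4.46 and 120.4 ± 3.84 CPM (SD, n = 4), the Log2FC was 0.02 (SE 0.03, adjusted p = 0.631 in edgeR), and its 95% interval ran from -0.04 to 0.09. By contrast *Junos*, the antisense RNA that overlaps 7.28% of the exon bases of *Jun*, rose from 1.38 ± 0.316 to 3.78 ± 0.586 CPM (SD, n = 4; Log2FC 1.42, adjusted p = 6.79e-07 in edgeR).

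*Junb* encodes JunB, which can restrain c-Jun at some promoters (ENSMUSG00000052837.6, chromosome 8, 84974484 to 84978718, minus strand). Its level was 181.9, 180.6, 201.0 and 192.8 CPM with IL-1β against 132.0, 141.3, 134.4 and 132.3 CPM with vehicle. Every IL-1β sample was above every vehicle sample. From 135.0 ± 4.31 CPM with vehicle it rose by 40.2% to 189.1 ± 9.65 CPM (SD, n = 4), with a Log2FC of 0.49 (SE 0.03, adjusted p = 1.56e-12 in edgeR). *Prdx2* overlaps 7.52% of its exon bases on the opposite strand and had a Log2FC of 0.22 (adjusted p = 9.54e-05 in edgeR).

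*Jund* encodes JunD, the member most often expressed without a stimulus (ENSMUSG00000071076.6, chromosome 8, 70698949 to 70700616, plus strand). It was at 89.9, 83.4, 95.8 and 93.3 CPM with IL-1β and at 101.7, 104.7, 100 and 93.4 CPM with vehicle. The groups overlapped, because IL-1β replicate 3 exceeded vehicle replicate 4. *Jund* fell by 9.34%, from 99.9 ± 4.81 to 90.6 ± 5.38 CPM (SD, n = 4), with a Log2FC of -0.14 (SE 0.04, adjusted p = 0.00793 in edgeR). The call lay near the threshold. Without IL-1β replicate 2 the Log2FC was -0.10 (adjusted p = 0.0511), and without vehicle replicate 2 it was -0.12 (adjusted p = 0.0462 in edgeR). *Gm11175* overlaps 52.6% of the exon bases of *Jund* on the opposite strand and had 0 reads in every sample.

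*Atf3* encodes a stress-induced factor that pairs with Jun proteins or with itself and often represses its targets (ENSMUSG00000026628.13, chromosome 1, 191170296 to 191218039, minus strand). Its level was 34.5, 32.3, 31.2 and 34.9 CPM with IL-1β, compared with 61.5, 65.5, 59.7 and 61.8 CPM with vehicle. The highest IL-1β sample did not reach the lowest vehicle sample. The means were 33.2 ± 1.75 and 62.1 ± 2.44 CPM (SD, n = 4), with a Log2FC of -0.91 (SE 0.05, adjusted p = 9.06e-16 in edgeR), and *Atf3* fell by 46.7%.

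*Batf* and *Batf3* encode short factors that consist of little more than the leucine zipper, pair with Jun proteins and are best known from lymphocytes and dendritic cells. *Batf* (ENSMUSG00000034266.6, chromosome 12, 85686669 to 85709087, plus strand) was at 3.89, 4.92, 3.93 and 2.99 CPM with IL-1β and at 3.53, 4.17, 4.51 and 2.70 CPM with vehicle. The groups overlapped over most of their range. Its Log2FC was 0.08 (SE 0.17, adjusted p = 0.762 in edgeR) with a 95% interval of -0.25 to 0.41, and the sign turned when either IL-1β replicate 2 (-0.05) or vehicle replicate 4 (-0.04) was left out.

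*Batf3* (ENSMUSG00000026630.9, chromosome 1, 191097847 to 191108945, plus strand) was nearly lost with IL-1β. It had 3, 3, 3 and 4 reads in IL-1β replicates 1 to 4 and 53, 34, 30 and 44 reads in vehicle replicates 1 to 4. In CPM these were 0.271, 0.217, 0.179 and 0.285 with IL-1β and 3.07, 1.97, 2.15 and 2.90 with vehicle. All IL-1β samples sat at or close to the floor of 3 counts, and none reached the lowest vehicle sample. The Log2FC was -3.39 (SE 0.32, adjusted p = 5.06e-10 in edgeR), lower than in all but 6 genes tested, although a fitted value depends on the prior count at so few reads. The summed reads, 161 with vehicle and 13 with IL-1β, gave a ratio of 10.8 after correction for depth, with a 95% counting interval of 6.16 to 20.8. The dendritic cell markers *Itgax*, *Flt3*, *Xcr1* and *Clec9a* were at 3 counts or fewer in every sample of both groups, *Clec9a* at 0, and the summed level of all 6 such markers, led by *Zbtb46*, was 20.6 to 24.5 CPM with IL-1β and 16.8 to 18.9 CPM with vehicle. Lymphocyte markers summed to between 0.498 and 0.814 CPM with IL-1β and between 0.215 and 0.754 CPM with vehicle, with *Cd3e*, *Ms4a1* and *Nkg7* at 0.

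Some members lie near each other in the genome. *Atf3* and *Batf3* are 61.4 kb apart on chromosome 1, and both fell. *Fos* and *Batf* are 209.4 kb apart on chromosome 12, and of these *Fos* fell while *Batf* did not pass the test. *Junb* and *Jund* share chromosome 8 at a distance of 14.3 Mb, and they moved in opposite directions.

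Levels were compared between genes per length, as CPM per kilobase of the deposited gene length (RPKM). For *Fosl1* this was 1707 bases, and with the 2033 exon bases of vM21 its RPKM, and so its place and share, would be lower. Opposite-strand genes overlap 57.2% of the exon bases of *Fosl1* and 52.6% of those of *Jund*, and the strand setting is not given. In vehicle samples *Fosl2* (61.2 ± 0.582 RPKM), *Jund* (59.9 ± 2.88) and *Junb* (58.7 ± 1.87) led the family and did not differ beyond their spread (SD, n = 4). Next came *Fosl1* at 40.6 ± 1.64, *Jun* at 37.8 ± 1.20, *Atf3* at 28.8 ± 1.13 and *Fos* at 10.5 ± 0.313 RPKM. *Batf* at 2.65 ± 0.565, *Batf3* at 1.58 ± 0.340 and *Fosb* at 0.282 ± 0.0398 RPKM closed the order, and from *Fosl1* on no neighbours overlapped. For comparison, the median gene tested stood at 4.37 RPKM with vehicle and 4.46 RPKM with IL-1β.

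IL-1β rearranged this order. *Junb* (82.2 ± 4.20 RPKM) and *Fosl2* (81.5 ± 0.936) led and overlapped, followed by *Fosl1* at 67.5 ± 2.86, which by its deposited length passed *Jund* at 54.3 ± 3.23 RPKM. *Jun* stood at 38.4 ± 1.40 and *Atf3* at 15.4 ± 0.812 RPKM. *Fos* was at 4.60 ± 0.281, *Batf* at 2.80 ± 0.561, *Batf3* at 0.149 ± 0.0307 and *Fosb* at 0.140 ± 0.0796 RPKM, and among these only the last pair overlapped. Among all genes tested, *Fos* moved from percentile 72.1 to percentile 50.7 of RPKM and *Batf3* from 26.9 to 0.812, whereas *Fosl2* moved only from 95.8 to 97.0.

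**Figure D4:**
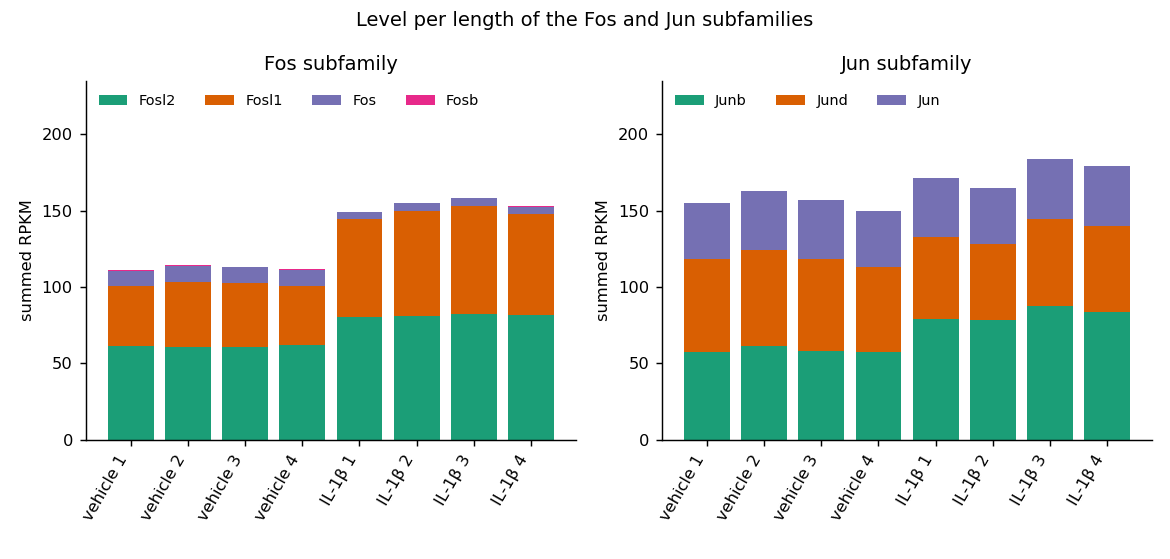
Level per length (RPKM) of the members of the Fos subfamily (left) and of the Jun subfamily (right), stacked in 1 bar for each vehicle and IL-1β sample, with 1 color per gene. The *Fosl1* and *Junb* segments are taller and the *Fos* segment is shorter in all IL-1β samples, and *Fosb* is too scarce to see in most bars.

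Within the Fos subfamily the share of *Fos* fell and that of *Fosl1* rose. The levels of *Fosl1* and *Fosl2* both rose, as the stacked bars per sample show. *Fos* made up 9.35 ± 0.155% of the subfamily's RPKM with vehicle and 2.99 ± 0.138% with IL-1β (SD, n = 4). *Fosl1* went from 36.0 ± 1.01% to 43.9 ± 0.816%, and *Fosb* stayed under 1% in either group. The share of *Fosl2*, between 53.3 and 55.5% with vehicle and between 52.1 and 53.9% with IL-1β, overlapped between groups. The summed level of the subfamily was 112.6 ± 1.53 RPKM with vehicle and 153.8 ± 3.85 RPKM with IL-1β.

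Within the Jun subfamily *Junb* took 37.5 ± 0.582% with vehicle and 47.0 ± 0.717% with IL-1β (SD, n = 4). *Jund* went from 38.3 ± 0.836% to 31.0 ± 0.484% and *Jun* from 24.2 ± 0.417% to 22.0 ± 0.507%, although the level of *Jun* itself did not pass the test. The summed level of the subfamily was 156.3 ± 5.37 RPKM with vehicle and 174.8 ± 8.38 RPKM with IL-1β.

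A ratio between members cancels the scaling of a sample, apart from the 0.5 CPM added before logs were taken, and 6 such log2 ratios were compared. The exact permutation test over samples (two-sided) cannot go below p = 0.0286 with 4 against 4. *Fosl1* over *Fos* was 1.47 ± 0.03 with vehicle and 3.35 ± 0.07 with IL-1β (SD, n = 4), a difference of 1.89. *Fosl2* over *Fos* differed by 1.57, *Junb* over *Jun* by 0.46, *Jund* over *Jun* by -0.17 and *Batf3* over *Batf* by -2.09. These 5 ratios all reached the smallest exact p of 0.0286 (adjusted 0.0343 over the 6). For *Fosl1* over *Fos* and *Fosl2* over *Fos* this was fixed beforehand, since these genes had separate groups that moved in opposite directions. The same held for *Junb* over *Jun* and *Batf3* over *Batf*, whose gene ranges in each group already kept the ratios apart. For these ratios the test adds nothing to the values of the members. *Batf3* had passed the filter only through its vehicle samples. The size for *Batf3* over *Batf* depended on the constant, since *Batf3* with IL-1β lay below the 0.5 CPM added. It was -1.56 with 1 CPM and -3.02 with 0.1 CPM. *Fosb* over *Fos* differed by 0.38, from -3.49 ± 0.17 to -3.11 ± 0.45 (SD, n = 4; exact permutation p = 0.171, adjusted 0.171).

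The promoters of 9 members, 250 bases before to 50 after the start in RefSeq on GRCm38.p6, were searched on both strands for elements through which the family is known to be controlled. The TPA response element TGANTCA, found in 7.81% of all 32851 promoter windows, was in none of the 9, and neither was the cAMP response element TGACGTCA (1.79% of windows) nor the CArG box of serum response elements (1.63%). Elements more than 250 bases before the start were not searched, so absence from a window does not mean absence from a promoter. Only the stated letters were matched, so other variants of an element inside a window would be missed. The variant TGACATCA, through which c-Jun is known to control its own gene, was in the window of *Jun* and in 3.62% of all windows. Its 30 bases around the match, on the minus strand, are shown with the element in capitals because *Jun* was the member whose level moved least.

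*Jun* chr4:95052249-95052278: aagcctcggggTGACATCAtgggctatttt

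The kappa-B consensus, bound by NF-κB, the factor that IL-1β is known to activate, was in 8.46% of all windows and in those of *Fos*, *Fosb* and *Fosl2*. The matches are shown in capitals, and each line is written along the strand of the gene, which is named with it. On that strand the consensus of *Fos* reads in the reverse direction only, while the capitals of *Fosb* and *Fosl2* read in both. A further match of *Fosl2* overlaps its capitals, ends in the lower-case base after them and reads in reverse only. *Fos* and *Fosb* were lower and *Fosl2* was higher with IL-1β, so genes with a match moved in both directions. A match is a description of these letters, not of a bound site.

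*Fos* chr12:85473665-85473694, gene on the plus strand: cggaaggtctaGGAGACCCCCtaagatccc
*Fosb* chr7:19310215-19310244, gene on the minus strand: aacgcagccttGGGGACCCCCgagaccccc
*Fosl2* chr5:32136279-32136308, gene on the plus strand: gagatcggggaGGGAGTCCCCcagagctgc

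Kinases that activate AP-1 were higher or did not pass the test. Beside 20.4% of all genes that rose and 19.8% that fell, the lists of related genes gave these counts. Of the kinases, 23 were tested, and 13 were higher, none lower and 10 did not pass the test (56.5% called, median Log2FC 0.20). The largest changes were in *Mapk13*, the delta isoform of p38 (Log2FC 2.02, adjusted p = 5.89e-17 in edgeR), *Map3k8*, which feeds the ERK pathway (1.33, adjusted p = 2.79e-12), and *Map3k5*, the stress kinase ASK1 (1.10, adjusted p = 3.41e-17). Of 6 genes listed for the serum response (*Srf*, *Elk1*, *Elk3*, *Elk4*, *Mkl1* and *Mkl2*), 1 was higher, 1 lower and 4 did not pass (33.3% called). Those called were *Elk3*, a ternary complex factor (Log2FC 0.45, adjusted p = 1.17e-09), and *Srf*, the serum response factor itself (Log2FC -0.20, adjusted p = 0.0145 in edgeR). The *Srf* groups overlapped, and its adjusted p was 0.0692 without IL-1β replicate 1 and 0.0639 without vehicle replicate 2. Of 10 genes for turnover of Jun and Fos proteins, 2 were higher and 4 lower (60% called). *Trib1* rose (Log2FC 0.79, adjusted p = 1.45e-11) and *Trib2* fell (Log2FC -0.43, adjusted p = 0.000124 in edgeR), both pseudokinases that bring substrates to a ubiquitin ligase.

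**Figure D5:**
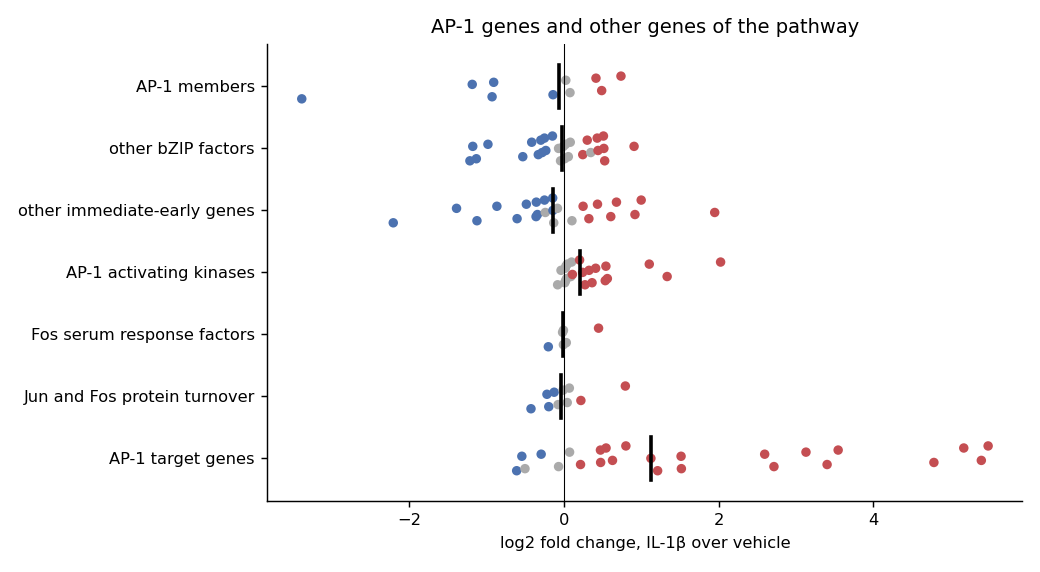
Log2FC, IL-1β over vehicle, of every tested gene in each list of AP-1-related genes and of the 10 members (points; red, higher, blue, lower, at an adjusted p under 0.05; grey, not passed; black bar, list median; the vertical scatter within a row has no meaning). The targets reach a Log2FC of 5.48, while the medians of the members and of the other bZIP and immediate-early genes lie close to or below 0.

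Other bZIP factors and other immediate-early genes moved both ways, as the members did. Of 28 other bZIP factors tested, 8 were higher, 12 lower and 8 did not pass (71.4% called beside 40.2% of all genes, median Log2FC -0.03). *Bach2*, a repressor best known in lymphocytes (Log2FC -1.22, adjusted p = 1.43e-06), and *Maf*, which encodes c-Maf (-1.18, adjusted p = 7.67e-21 in edgeR), were downregulated DEGs. *Jdp2*, a repressive Jun partner named here after its values were seen, had a Log2FC of -0.30 (adjusted p = 2.12e-06 in edgeR).

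Of 24 other immediate-early genes tested, 8 were higher, 12 lower and 4 did not pass (83.3% called beside 40.2% of all genes, median Log2FC -0.14). *Arc*, known from neurons, fell from 5.92 ± 0.607 to 1.27 ± 0.322 CPM (Log2FC -2.21, adjusted p = 2.39e-11 in edgeR). *Ctgf*, a matricellular growth factor, and *Ier5l* were also lower (-1.39 and -1.12), whereas *Ier3*, a survival gene, rose from 48.6 ± 2.65 to 187.8 ± 4.67 CPM (SD, n = 4; Log2FC 1.95, adjusted p = 6.66e-26 in edgeR). Among genes named after their values were seen, *Egr1* had a Log2FC of -0.36 (adjusted p = 1.27e-09), in the direction of *Fos*. The nuclear receptors *Nr4a1*, *Nr4a2* and *Nr4a3* went the other way, with Log2FC of 1.00, 0.92 and 0.68 (adjusted p = 6.66e-06, 2.48e-12 and 0.0018 in edgeR).

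Genes known as AP-1 targets were mostly higher. Of 35 listed, 25 were tested, and 19 were higher, 3 lower and 3 did not pass (88% called beside 40.2% of all genes). Upregulated DEGs numbered 13, where 5.21% of all genes were DEGs in either direction and 2.35% were downregulated DEGs. The median Log2FC was 1.12 against -0.00121 for all genes. This list was written with earlier results of these data known. Many of these genes are also known targets of NF-κB, so the list does not single out AP-1. *Mmp3*, a matrix metalloproteinase, rose from 23.6 ± 1.48 to 1058 ± 69.3 CPM (SD, n = 4; Log2FC 5.48, adjusted p = 1.12e-33 in edgeR). *Nos2*, the inducible nitric oxide synthase, rose from 1.57 ± 0.26 to 67.4 ± 4.53 CPM (Log2FC 5.40, adjusted p = 1.55e-27). The chemokine genes *Cxcl1* and *Ccl2* rose with Log2FC of 5.17 and 4.78 (adjusted p = 3.99e-34 and 9.69e-17 in edgeR). These targets were named because their changes were the largest of the list, so their sizes cannot be set against those of the members. *Ccl2* entered the test only through its IL-1β samples, with a vehicle mean of 0.342 CPM.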

How the data were processed

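The authors deposited 1 table of whole-number counts per gene for the 8 samples, with a gene length column. The study's methods mention batch-corrected counts, and whether the deposited counts precede or follow that correction is not given in the sources used here. Their notes name mm10, cutadapt, STAR 2.4.2a, featureCounts (Subread) and DESeq2, and the study's methods give another STAR version. The strand setting is not given in the sources used here. Genes above 1 CPM in at least 4 of 8 samples were kept (14404), scaled by TMM (factors 0.984 to 1.01) and tested with edgeR 4.0.16 (glmQLFit, glmQLFTest, R 4.3.3) on group alone, with Benjamini-Hochberg adjustment over all genes tested. RPKM used the deposited lengths. Ratios were compared by an exact permutation test over samples (scipy 1.17.1). The fit was tested on simulated data. Members and gene lists were chosen with earlier results of these data known. The 10 members were named whatever their values. Of each list of related genes at most 4 were named, those with the largest Log2FC among DEGs whose groups did not overlap, or the 2 largest that passed where fewer than 2 qualified (17 genes, with 1 other not reported here), and 8 more were named after their values were seen. Alternatives were DESeq2 1.42.0, its size factors, total counts, other filters, glmTreat, a Log2FC limit of 2, 1 RUVs factor, the replicate block, other pseudocounts, shares without length and leaving out each replicate. Gene positions are from GENCODE vM21 and promoters from RefSeq. The table's gene length equalled the exon bases in vM21 for 9 members and was 1707 against 2033 for *Fosl1*.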

Additional observations from a re-analysis of the deposited data

Results flagged for a closer look

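In groups of 4 samples, 1 sample was set apart when its gap to the nearest other divided by the group's range exceeded Dixon's 95% critical value, which chance does in about 1 of 20 groups. Of the 70 groups compared over the named genes, 1 met this, where chance would give 3.5, and it belonged to no AP-1 member. *Nos2* was at 74.1 CPM in IL-1β replicate 1 and between 64.6 and 65.8 CPM in the others of its group.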

How the results depend on the processing

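Of 148 alternative values for the Log2FC of the 10 members, 145 kept their direction and their side of the threshold, *Batf* turned in 2 (-0.0491 without IL-1β replicate 2 and -0.0426 without vehicle replicate 4), and *Jund* lost its call in 1. Over all samples left out in turn, the Log2FC of *Batf* ran from -0.05 to 0.19. Leaving out each replicate gave 7 to 8 members called, 4 to 5 lower, 3 higher and 2 to 3 DEGs. DESeq2, its size factors, total counts and 1 RUVs factor each gave 8 called and 2 DEGs. With CPM above 1 required in all 8 samples, *Fosb* and *Batf3* were not tested, which left 3 members lower and 1 DEG. A test against a Log2FC of 1 (glmTreat) left 1 DEG among members, *Batf3* (*Fos*, adjusted p = 0.0577), and 437 among all genes. A limit of 2 left 1 and 183, and no filter on low counts gave 1206 DEGs among all genes against 751. *Fosb* over *Fos* passed with 1 CPM added (0.53, adjusted exact p = 0.0286) and not with 0.1 CPM added (0.12, adjusted exact p = 0.714). *Batf3* over *Batf* ran from -3.02 with 0.1 CPM to -1.56 with 1 CPM. Shares computed from CPM without length, IL-1β then vehicle, were 1.18 and 3.60% for *Fos*, 12.6 and 10.1% for *Fosl1*, 86.1 and 86.1% for *Fosl2*, 30.5 and 33.9% for *Jun*, and 22.5 and 28.1% for *Jund*. Among other named genes 370 of 373 alternative values kept their call, and *Srf* lost it in 3: with 1 RUVs factor (-0.11), without IL-1β replicate 1 (-0.13) and without vehicle replicate 2 (-0.17).

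No pairing by replicate number was seen, since deviations of same-numbered samples correlated at 0.03, -0.04, -0.01 and -0.07. Differently numbered samples correlated at -0.07 to 0.08. Whether samples were prepared in pairs is not stated in the sources used here. With the replicate block 8 members were called, 3 higher and 5 lower, with 2 DEGs, and all genes gave 5644 calls and 751 DEGs. It changed no member's call. Depth limited *Fosb* and *Batf3*, whose IL-1β samples held few reads.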
